A study of Homo sapiens with 18 samples.

Results

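The comparison described here sets HEK293 cells transfected with a RHOXF2 expression vector against cells given a control vector, both harvested 48 h after transfection. It rests on 6 of the 18 arrays of the study, 3 per group, and on the 21214 of 33297 transcript clusters (the array's gene-level probe groups) that carry a gene symbol. The other groups are control and RHOXF2 cells at 24 h, used below as further levels, RHOXF1 cells at 48 h, and RHOXF1 cells at 24 h, which enter the shared estimate of spread only. HEK293 is a human embryonic kidney line. All groups were transfected transiently in well plates with Lipofectamine 2000 in serum-free medium, with OriGene plasmids: clones of RHOXF1 and RHOXF2, and pCMV6-AC-GFP, while the control arrays carry the label of an empty vector. RNA from a well therefore mixes cells that took up plasmid with cells that did not, and a change in fewer cells cannot be told apart from a smaller change in all of them. The arrays of a group are described as biological triplicates.

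RHOXF1 and RHOXF2 are homeobox genes of the reproductive RHOX cluster on the X chromosome, known from germ cells of the testis and ovary. Homeodomain proteins bind DNA, typically at sites with a TAAT core. Inducible chaperones answer unfolded protein through heat shock factor 1, which binds repeats of GAA, and TEAD factors with YAP act at the MCAT element (GGAATG) of genes such as ANKRD1. Small nucleolar RNAs (snoRNAs) guide chemical modification of ribosomal RNA and are mostly cut from introns of host genes.

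Against control at 48 h, limma called 20 clusters at an adjusted p under 0.05 (0.0943% of those tested), 18 higher and 2 lower. Of these, 10 belong to chaperones (HSPA1A with HSPA1B, HSPA6 with HSPA7, HSPH1, DNAJB1 and BAG3) and 3 to RHOXF1 and RHOXF2. The other 7 clusters belong to 6 genes: ANKRD1, RFPL4A, PGBD5 and KRTAP19-5 rose, and ADAM20P1 and PRRT2 fell. Several clusters repeat a gene, so the 20 hold 18 distinct sets of values and 14 distinct names. At an unadjusted p under 0.05 there were 1359 higher clusters (6.41%) and 1219 lower (5.75%). All 3 RHOXF2 arrays lay above all 3 control arrays for 1397 clusters (6.59%) and below them for 1112 (5.24%). These last 2 shares are the background against which the counts of gene families below are read.

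One RHOXF2 array stands apart. On the first principal component of the 18 arrays, RHOXF2 replicate 3 lay at -4.5, whereas the other arrays of 48 h lay between 9.4 and 26.3 and the arrays of 24 h between -17.2 and -8.7. Without it 15 clusters were called; PGBD5, PRRT2, KRTAP19-5, RHOXF1 and the co-chaperone BAG3 lost their calls. Single arrays moved the total by more than this: it was 54 without RHOXF2 replicate 1 and 125 (54 higher, 71 lower) without control replicate 1. On the same component control replicate 1 lay at 11.6, close to RHOXF2 replicates 1 and 2 (12 and 13.8). The other control arrays of 48 h lay at 23.7 and 26.3. Leaving out control replicate 1 thus widens the gap between the groups there, which limits what calls without it show. The control arrays differed with time at 3772 clusters (17.8%), so each gene below is also set against control at 24 h. Arrays numbered 1 to 9 are all of 24 h and 16 to 24 all of 48 h, so time and array number cannot be told apart in that second comparison. Against control at 24 h RHOXF2 at 48 h gave 1036 calls (4.88%), 778 higher (3.67%) and 258 lower (1.22%), or 568 higher and 330 lower after a repeated quantile normalization. Of the 20 clusters called at 48 h, 15 also passed there, but only 8 without RHOXF2 replicate 2 and 10 after the repeated normalization. RHOXF2 arrays lay above all control arrays of 24 h at 13.1% of clusters and below them at 9.5%. Among clusters with a symbol, 11 of 13 HEK293 markers ranked above the median in both groups, against 2 of 25 markers of other cell types.

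The 4 genes that rose and are shown first were chosen as examples, as was the motif marked in each, and do not stand for all called genes. Their promoter windows are printed below. Each is the 250 bases before the RefSeq transcription start (GRCh38.p14), read 5′ to 3′ on the gene's strand: ANKRD1 at chr10:90921088-90921337 (minus strand), HSPA6 at chr1:161524290-161524539 (plus), RFPL4A at chr19:55758847-55759096 (plus) and KRTAP19-5 at chr21:30502142-30502391 (minus). Capitals mark GGAATG or its reverse complement CATTCC in ANKRD1, GAANNTTC or TTCNNGAA in HSPA6, and TAAT or ATTA in RFPL4A and KRTAP19-5, with overlapping matches each counted.
ANKRD1: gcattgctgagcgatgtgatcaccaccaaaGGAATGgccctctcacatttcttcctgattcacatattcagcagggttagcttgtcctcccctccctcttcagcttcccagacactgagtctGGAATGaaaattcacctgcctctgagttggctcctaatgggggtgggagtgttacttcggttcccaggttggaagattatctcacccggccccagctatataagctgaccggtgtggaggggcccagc
HSPA6: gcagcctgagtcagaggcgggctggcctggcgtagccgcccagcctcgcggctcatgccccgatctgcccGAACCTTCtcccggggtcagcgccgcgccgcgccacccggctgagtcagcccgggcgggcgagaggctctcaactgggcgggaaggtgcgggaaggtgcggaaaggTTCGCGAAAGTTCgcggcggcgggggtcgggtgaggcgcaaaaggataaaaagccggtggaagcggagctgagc
RFPL4A: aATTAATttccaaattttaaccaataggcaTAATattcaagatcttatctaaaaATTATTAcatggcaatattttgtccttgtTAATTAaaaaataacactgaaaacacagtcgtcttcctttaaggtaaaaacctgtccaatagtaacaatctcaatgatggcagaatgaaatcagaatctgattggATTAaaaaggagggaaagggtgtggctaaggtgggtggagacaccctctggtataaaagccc
KRTAP19-5: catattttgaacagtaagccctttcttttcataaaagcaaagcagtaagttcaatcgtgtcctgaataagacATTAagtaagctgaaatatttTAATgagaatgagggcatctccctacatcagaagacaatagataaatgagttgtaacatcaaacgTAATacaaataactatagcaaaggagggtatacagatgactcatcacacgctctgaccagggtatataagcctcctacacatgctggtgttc

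Among 35116 such windows of RefSeq genes, 11.9% hold the 6-letter MCAT motif, and 0.94% hold at least as many matches as the 2 of ANKRD1. The heat shock motif is found in 11.6% of windows, and 3 or more matches, as in HSPA6, in 0.145%. The other called chaperones hold fewer: HSPA1A and HSPA1B have 1 match each, HSPH1 and BAG3 have 0, and DNAJB1 has 2 in 1 of its windows and 0 in the others. ANKRD1 also holds 1. TAAT or ATTA is present in 47.4% of windows. RFPL4A holds 8 matches, a count reached by 1.12% of windows, and KRTAP19-5 and the chaperone HSPH1 hold 3 each, reached by 16.8%. ANKRD1 holds 2 and BAG3 1, while PGBD5, HSPA6, DNAJB1, HSPA1A and HSPA1B hold 0. The printed windows were picked from the called genes and several motifs were searched, so these shares are not a test. A match is a run of letters and does not show binding. Of the called genes, PRRT2 and ADAM20P1 have no window in the table used.

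ANKRD1, which encodes a cardiac ankyrin repeat protein found in nucleus and sarcomere, read 7.90, 8.45 and 7.39 (log2 RMA units) on the RHOXF2 arrays of 48 h. The control arrays read 5.42, 5.41 and 5.61 at 48 h, and 5.54, 5.52 and 5.67 at 24 h. Every RHOXF2 array at 48 h was thus more than 1 unit above every control array of either time. The difference from control at 48 h was 2.43 ± 0.20 (SE; limma, adjusted p = 1.88e-06), and from control at 24 h 2.33 (adjusted p = 3.76e-06). Cells with RHOXF2 at 24 h read 5.68, 6.40 and 6.27, the first level with the highest control array of that time and the others above it, and the effect at 48 h exceeded that at 24 h by 1.89 ± 0.28 (adjusted p = 0.0168). With RHOXF1 at 48 h the levels were 5.43, 5.72 and 5.57, and RHOXF2 exceeded RHOXF1 by 2.34 (adjusted p = 2.71e-06).

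No other gene answering YAP and TEAD was called. The list of 23 such clusters had 14 higher and 9 lower, with 1 called and a median of 0.01, beside 0.013 over all clusters. CCN2, a secreted matrix protein and the most used YAP readout, differed by 0.05 ± 0.09 (adjusted p = 0.877), CCN1 by -0.06 ± 0.18 (adjusted p = 0.929) and the Hippo scaffold AMOTL2 by -0.09 ± 0.12 (adjusted p = 0.824). YAP1 itself read -0.08 ± 0.08 against control, and TEAD1 0.07 ± 0.08. The growth factor gene TGFB2 had the second smallest p of the list, at -0.46 ± 0.13 (adjusted p = 0.213).

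RFPL4A, a RING finger gene known from oocytes, has 2 clusters on the array and both rose. The brighter read 6.32, 6.58 and 6.17 with RHOXF2 at 48 h, against 5.39, 5.27 and 5.49 in control at 48 h and 5.45, 5.28 and 5.45 in control at 24 h. The groups did not overlap, and the difference was 0.98 ± 0.12 (adjusted p = 0.000461). The second cluster read 6.04, 6.53 and 6.06 against 5.44, 5.13 and 5.31, a difference of 0.92 ± 0.12 (adjusted p = 0.00125). At 24 h the RHOXF2 arrays overlapped control for the brighter cluster (5.27, 5.10 and 5.47), and the effect at 48 h exceeded that at 24 h by 1.09 (adjusted p = 0.0168) and 1.28 (adjusted p = 0.00914). For the second cluster RHOXF2 differed from control at 24 h by -0.36 (adjusted p = 0.462), and this enters the 1.28. With RHOXF1 at 48 h the brighter cluster read 5.89, 5.88 and 5.68, between control and RHOXF2, and the difference between the transfected genes was 0.54 (adjusted p = 0.27). RFPL4AL1 lies next to RFPL4A in the annotation and its promoter window is near-identical (274 of 279 overlapping bases, 98.2%), and whether these clusters separate the copies was not tested. The other members of the family, RFPL1, RFPL2, RFPL3 and RFPL4B, differed by -0.08 to 0.07, none called.

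KRTAP19-5, a glycine- and tyrosine-rich keratin-associated protein of the hair shaft, read 7.39, 7.56 and 7.40 with RHOXF2 at 48 h. Control cells read 6.93, 6.56 and 6.98 at that time and 6.45, 6.61 and 6.71 at 24 h. The lowest RHOXF2 array was above the highest control array of each time. The difference was 0.62 ± 0.11 at 48 h (adjusted p = 0.0291), 0.86 against control at 24 h (adjusted p = 0.00126) and 0.70 against RHOXF1 at 48 h (adjusted p = 0.0114). The call against control at 48 h was lost without RHOXF2 replicate 2 or 3 or control replicate 2. It was also lost with a replicate block (adjusted p = 0.0634), with the 9 arrays of 48 h alone (0.146) and with the 6 compared arrays (0.497). The call against RHOXF1 was lost without RHOXF2 replicate 2 (adjusted p = 0.148), with a replicate block (0.0635) and with the 9 arrays of 48 h alone (0.141). None of the 7 other KRTAP19 genes was called, with differences from -0.17 to -0.01, and of 89 keratin-associated clusters 58 were lower (median -0.037).

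PGBD5, a domesticated piggyBac transposase gene expressed in brain, read 6.61, 6.85 and 7.01 against 6.24, 6.02 and 6.12 in control at 48 h. Control at 24 h was higher, at 6.45, 6.26 and 6.61, so that its highest array reached the lowest RHOXF2 array. PGBD5 rose by 0.70 ± 0.11 against control at 48 h (adjusted p = 0.00593) and by 0.38 against control at 24 h (adjusted p = 0.0494). Without RHOXF2 replicate 3 the difference was 0.60 (adjusted p = 0.0688), and PGBD5 also missed the threshold without control replicate 2. The same held with only the 9 arrays of 48 h fitted (adjusted p = 0.0911) or the 6 compared arrays (0.261). Its call against control at 24 h was lost under 8 of 12 alternatives, with an adjusted p of 0.163 without RHOXF2 replicate 2 and 0.14 without replicate 3. PGBD1, PGBD2 and PGBD4 differed from control by 0.05, 0.11 and 0.07. Over 25 clusters of domesticated transposases 14 were higher, 11 lower and PGBD5 alone was called.

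GCM1, a transcription factor of placental trophoblast, did not pass against control at 48 h (0.57 ± 0.12, adjusted p = 0.0959; 0.0386 without control replicate 1). Its levels with RHOXF2 were 6.50, 6.49 and 6.28, against 6.01, 5.73 and 5.80 in control at 48 h and 5.81, 5.65 and 5.87 at 24 h. RHOXF2 arrays were above all control arrays, and GCM1 did pass against control at 24 h (0.64, adjusted p = 0.00999). It also passed against RHOXF1 at 48 h, where levels were 5.39, 5.67 and 5.58 (0.87 ± 0.12, adjusted p = 0.00467; 0.0554 without RHOXF2 replicate 2). Of 35 trophoblast clusters 24 were higher and 11 lower, with none called (limma: 0); unadjusted p-values under 0.05 numbered 3 higher and 1 lower (median 0.024).

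The RHOXF1 signal was uneven across RHOXF2 arrays. Its cluster read 7.75, 7.03 and 9.12 there and 5.67, 6.20 and 6.51 in control, while the RHOXF1-transfected arrays of 48 h read 12.29, 12.27 and 12.25. The difference from control was 1.84 ± 0.34 (adjusted p = 0.0462), the highest value came from replicate 3, and without it the difference was 1.26 (adjusted p = 0.0998). The call was also lost without any one of the control replicates. Expression of RHOXF2 itself, in a cluster shared with RHOXF2B, was even across the transfected arrays (12.95, 12.96 and 12.85) against 6.47, 6.44 and 6.95 in control.

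**Figure D1:**
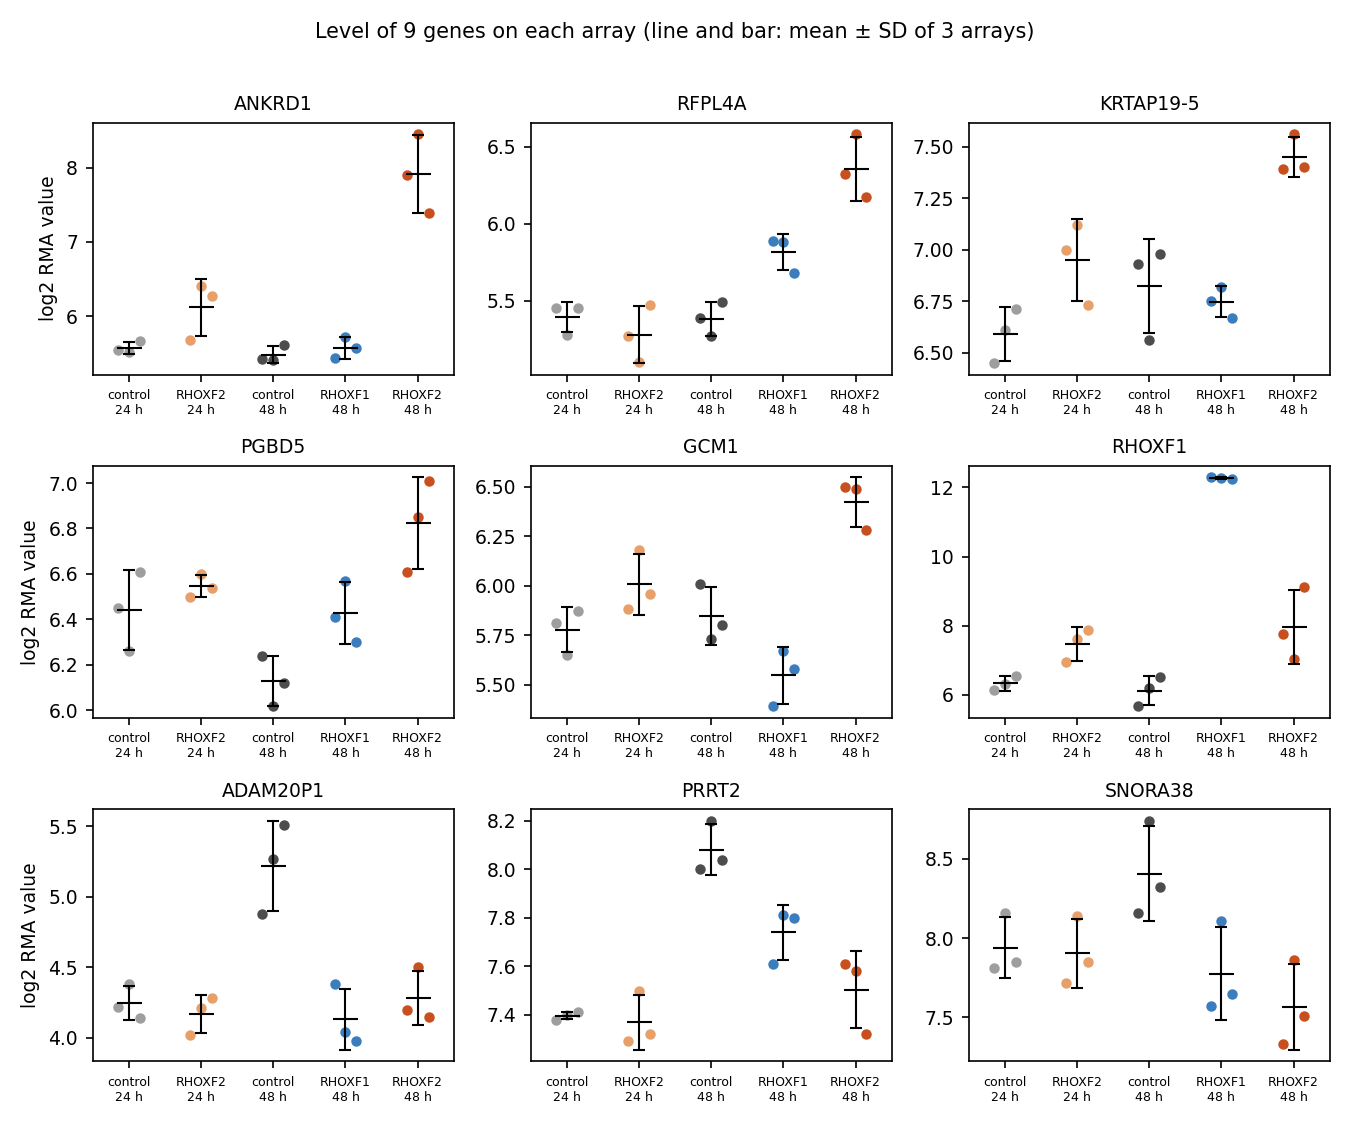
Level of 9 genes (log2 RMA value, vertical axis) on each array of 5 groups, with the mean and SD of 3 arrays as line and bar; the vertical axes differ between panels. ANKRD1, RFPL4A and KRTAP19-5 were high on RHOXF2 arrays of 48 h against controls of both times, whereas ADAM20P1 and PRRT2 were high on the control arrays of 48 h.

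Both genes that fell did so from a control level that had itself risen with time. ADAM20P1, a pseudogene of the testis metalloprotease ADAM20, read 4.20, 4.50 and 4.15 with RHOXF2 at 48 h, against 4.88, 5.27 and 5.51 in control at 48 h, with no overlap. It read 4.22, 4.38 and 4.14 in control at 24 h. Its difference was -0.94 ± 0.14 against control at 48 h (adjusted p = 0.00359) and 0.03 against control at 24 h (adjusted p = 0.911), while control rose by 0.97 between the times (adjusted p = 0.000481). PRRT2, which encodes a presynaptic membrane protein, read 7.61, 7.58 and 7.32 against 8.0, 8.20 and 8.04 at 48 h and 7.38, 7.40 and 7.41 in control at 24 h. It fell by 0.58 on the log2 scale against control at 48 h (SE 0.09, adjusted p = 0.00593) and stood 0.11 above control at 24 h (adjusted p = 0.496). Without RHOXF2 replicate 3 PRRT2 was at -0.48 (adjusted p = 0.0633), and without control replicate 2 it also missed the threshold. With only the 9 arrays of 48 h fitted neither gene was called (adjusted p = 0.117 for ADAM20P1 and 0.146 for PRRT2). The 6 compared arrays alone gave 0.261 and 0.462. RHOXF1 arrays of 48 h read 4.38, 4.04 and 3.98 for ADAM20P1, the difference of RHOXF2 from them being 0.14 (adjusted p = 0.998).

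The ADAM genes that neighbour ADAM20P1 in the annotation pointed both ways. ADAM20 read 5.45, 5.50 and 5.41 against 5.65, 6.35 and 6.55 (-0.73 ± 0.17, adjusted p = 0.124), below all control arrays of 48 h and of 24 h. The cluster shared by ADAM21 and its pseudogene ADAM21P1 read 5.65, 6.24 and 5.85 against 5.27, 5.35 and 5.46 (0.55 ± 0.15, adjusted p = 0.21), above all of them. Across 24 ADAM clusters 12 were higher and 12 lower (median -0.003).

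The check against the 24 h controls separated the named genes. By the rule, 12 genes outside the chaperones were named on each side, those with the smallest p whose RHOXF2 arrays all lay outside the range of the 48 h controls. On the higher side 5 were called (0.0848% of all clusters), a number that follows from picking by p. Against control at 24 h 6 passed in the same direction, beside 3.67% of all clusters: ANKRD1, RFPL4A, KRTAP19-5, RHOXF1, GCM1 and, under few alternatives, PGBD5. The other 6 did not pass either comparison. UBLCP1, a phosphatase that acts on the proteasome, read 9.65, 9.51 and 9.61 against 9.24, 8.89 and 9.12 at 48 h and 9.61, 9.54 and 9.79 in control at 24 h. Its 48 h groups did not overlap (0.51 ± 0.10, adjusted p = 0.0602), but against control at 24 h the difference was -0.05. Differences near 0 against control at 24 h were also found for MED27, a Mediator subunit (0.67 at 48 h, -0.08 against control at 24 h), PRMT6, an arginine methyltransferase (0.55 and -0.09), and ETV4, an ETS transcription factor (0.50 and 0.09). CLCN4, a chloride-proton exchanger, kept 0.36 of 0.54 (adjusted p = 0.0671), and FAM24A read 0.41 and 0.17.

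On the lower side 2 genes were called (0.00943% of all clusters). Of the 12, 10 had a control level that changed with time at an adjusted p under 0.05, beside 17.8% of all clusters. The picking rule and the change with time both use the control arrays of 48 h, so this share is partly set by the rule. Only SNORD7 lay below all control arrays of both times: 5.47, 5.35 and 5.38 against 5.86, 6.09 and 5.99 at 48 h and 5.68, 5.89 and 5.98 at 24 h. This C/D box snoRNA differed by -0.58 at 48 h (adjusted p = 0.0942) and by -0.45 against control at 24 h (adjusted p = 0.0416). MLXIPL, the glucose-responsive transcription factor ChREBP, was lower than control at 48 h (-0.50) and higher than control at 24 h (0.38), with neither difference called. The same held for AOAH, which degrades bacterial lipopolysaccharide (-0.81 and 0.41). GABBR1, a GABA-B receptor subunit, read -0.66 and 0.13, SLC25A27, a mitochondrial carrier of the uncoupling protein family, -0.87 and -0.15, DZIP1L, a ciliary transition zone protein, -0.48 and -0.05, CSAD, an enzyme of taurine synthesis, -0.42 and -0.04, and CFHR4, a complement factor H relative, -0.39 and 0.16. None of these 5 passed against either control.

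**Figure D2:**
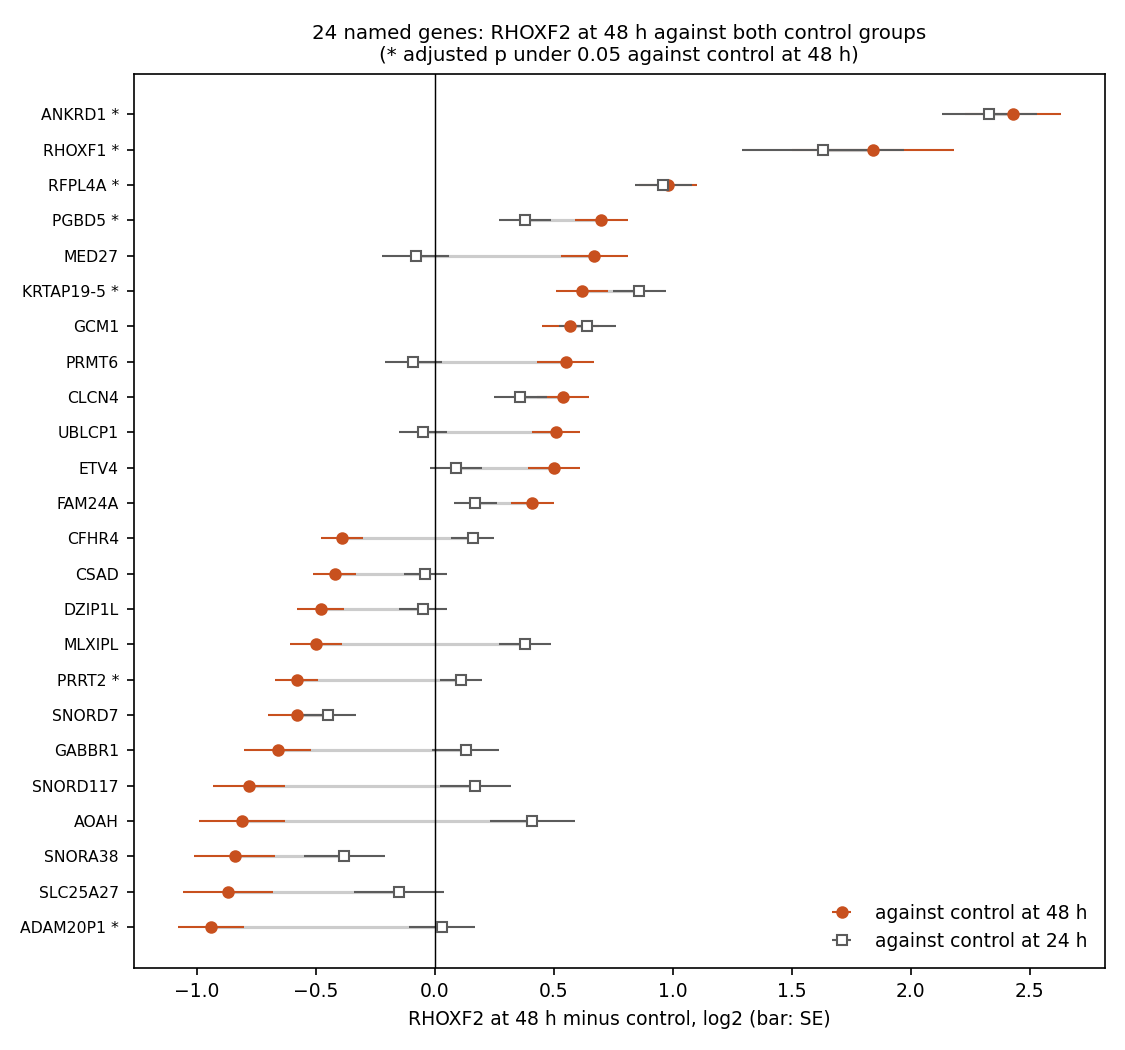
Difference (log2, with its SE) of RHOXF2 at 48 h from control at 48 h (filled circles) and from control at 24 h (open squares) for the 24 named genes; a star marks an adjusted p under 0.05 against control at 48 h. ANKRD1, RFPL4A, KRTAP19-5 and GCM1 keep their difference against both controls, while MED27, PRMT6, UBLCP1, ADAM20P1 and PRRT2 come close to 0 against control at 24 h.

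Chaperone genes are given here by class. Each of the 6 clusters of inducible HSP70 genes (HSPA1A, HSPA1B, HSPA6 and HSPA7) rose, with a median difference of 0.926, and 0.48 against control at 24 h. Clusters of HSPA1A and HSPA1B split in the comparison with control at 24 h. Differences of 0.48 passed (adjusted p = 0.0347 and 0.0351), whereas 0.31 and 0.30 did not (adjusted p = 0.0612 and 0.0637). HSPA6, which is silent in most unstressed cells, read 8.70, 9.12 and 7.43 against 6.56, 6.45 and 6.28 at 48 h and 6.66, 6.65 and 6.48 in control at 24 h. Replicate 3 was the lowest RHOXF2 array, the difference being 1.98 with it and 2.48 without it. HSPH1, a nucleotide exchange factor for HSP70, read 10.24, 10.73 and 10.47 against 9.45, 9.18 and 9.45 in control at 48 h, but 10.28, 10.69 and 10.78 in control at 24 h. Its difference was 1.12 ± 0.15 (adjusted p = 0.0015) at 48 h and -0.10 (adjusted p = 0.723) against control at 24 h. HSPB8, a small heat shock protein that works with BAG3 in selective autophagy, missed the threshold at 48 h (0.70, adjusted p = 0.0602) and passed against control at 24 h (1.05, adjusted p = 0.00126).

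Classes of constitutive chaperones differed less. Of 12 chaperonin clusters, which fold actin and tubulin or mitochondrial proteins, 11 were higher (median 0.112) and 6 lay above all control arrays of 48 h. By limma 0 of them were called, and 3 higher had an unadjusted p under 0.05. Against control at 24 h their median was -0.126, with 0 above all control arrays of that time and 3 below. HSP90 and its co-chaperones had 14 of 17 higher (median 0.16, and -0.065 against control at 24 h), while class C of the HSP40 family had 16 of 29 higher (median 0.025). The heat shock factor genes themselves were not called; HSF1 read 0.10 (adjusted p = 0.715) and HSF4 -0.28 (adjusted p = 0.267).

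Among small RNAs, both snoRNA families read lower with RHOXF2 than in control at 48 h, without a call on the full set of arrays. Against control at 24 h the list medians were nearer 0. H/ACA box snoRNAs and scaRNAs, which guide pseudouridylation, had 76 of 82 clusters lower, with a median of -0.303. Of the 82, 15 (18.3%) lay below all control arrays of 48 h. Against control at 24 h the median was -0.132, and 5 lay below all control arrays of that time. The calls by limma were 0, while 17 clusters, all lower, reached an unadjusted p under 0.05. C/D box snoRNAs, which guide ribose methylation, had 95 of 126 lower and 22 (17.5%) below all control arrays of 48 h, with a median of -0.168. Against control at 24 h the median was -0.031, with 11 below all control arrays of that time and 7 above. Over all clusters 9.5% lay below all control arrays of 24 h. Again limma called 0, and an unadjusted p under 0.05 was reached by 26 lower and 2 higher clusters. Clusters that join a snoRNA with its host gene had 41 of 50 lower and 14 (28.0%) below all controls of 48 h. Against control at 24 h their median was -0.163, and 3 lay below all controls of that time. The list includes the clusters of SNHG1, a noncoding host gene, with SNORD31 (-0.86, adjusted p = 0.091) and with SNORD22 (-0.87, adjusted p = 0.0942). That list was formed after its values were seen. Without control replicate 1, limma called 2 H/ACA, 2 C/D and 4 host clusters, all lower. That removal gave the most calls of any array left out, 125 of 21214 clusters, 71 of them lower.

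Single snoRNAs show how far the arrays agreed. SNORA38 read 7.33, 7.86 and 7.51 with RHOXF2 at 48 h, against 8.16, 8.74 and 8.32 in control at 48 h and 7.81, 8.16 and 7.85 in control at 24 h. It was below all 48 h controls and partly within those of 24 h (-0.84, adjusted p = 0.0678; -0.38 against 24 h, adjusted p = 0.187). SNORD117 read 7.60, 8.08 and 7.37 against 8.43, 8.78 and 8.18 (-0.78, adjusted p = 0.0678), and 0.17 above control at 24 h. The scaRNA SCARNA22, which acts in Cajal bodies, read -0.64 ± 0.17 (adjusted p = 0.197) and 0.17 against control at 24 h.

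Per array, the mean of the H/ACA list relative to the control mean of 48 h was -0.41, -0.091 and -0.464 in RHOXF2 cells and -0.111, 0.082 and 0.029 in control cells. Replicate 2 of RHOXF2 thus lay within the control range. Control arrays of 24 h spread from -0.433 to 0.046, and RHOXF1 arrays of 48 h from -0.356 to 0.153. For the C/D list RHOXF2 arrays were at -0.221, 0.024 and -0.352. Control arrays were at 0.063, 0.045 and -0.108 at 48 h and at -0.273, -0.025 and -0.028 at 24 h. Without RHOXF2 replicate 3 the H/ACA median was -0.213 with 69 of 82 lower, and that of C/D snoRNAs -0.077 with 86 of 126 lower. Leaving out control replicate 1 gave -0.078 for the C/D list, and without RHOXF2 replicate 1 or 2 it was -0.109 or -0.259. The list of snoRNAs with host genes went from -0.277 to -0.147 without RHOXF2 replicate 3. In total RNA arrays small RNAs are read through probes that also match their precursors, and which form was measured was not tested.

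MicroRNA genes as a group stayed at the level of all clusters, with 92 of 210 higher and 118 lower (median -0.013). The 3 with the smallest p were lower and are printed with the seed (bases 2 to 8) in capitals, from RefSeq on GRCh38.p14: MIR181B1 (5p arm at chr1:198858925-198858947, minus strand), MIR148B (3p arm at chr12:54337278-54337299, plus strand) and MIR221 (3p arm at chrX:45746180-45746202, minus strand). They share no seed.
miR-181b-5p: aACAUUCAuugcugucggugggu
miR-148b-3p: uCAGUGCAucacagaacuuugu
miR-221-3p: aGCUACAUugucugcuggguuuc

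The cluster of MIR221, whose mature form targets cell cycle inhibitors, read 7.12, 7.72 and 6.77 with RHOXF2 at 48 h against 7.78, 8.64 and 8.35 in control (-1.06 ± 0.26, adjusted p = 0.181). MIR181B1 read 6.60, 6.16 and 6.25 against 7.17, 6.98 and 6.88 (-0.67 ± 0.15, adjusted p = 0.124). MIR148B read 3.95, 4.16 and 3.51 against 4.30, 4.60 and 4.58 (-0.62 ± 0.14, adjusted p = 0.131). All 3 were below every control array of 48 h and none passed, and against control at 24 h the differences were -0.62, -0.24 and -0.04. Without control replicate 1 limma called 5 microRNA clusters, all lower, beside 71 lower among all 21214 clusters. The mature microRNAs were not measured.

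Nucleolar, proteasome and mitochondrial ribosomal lists had medians above control at 48 h and under control at 24 h, whereas cytosolic ribosomal proteins had the opposite signs. Nucleolar factors of ribosome biogenesis had 39 of 42 clusters higher and 8 (19.0%) above all control arrays of 48 h. Their median was 0.184 at 48 h and -0.212 against control at 24 h. NOL6, a factor of the small ribosomal subunit, read 8.20, 8.22 and 9.05 with RHOXF2, 7.91, 7.93 and 7.77 in control at 48 h, and 9.02, 8.86 and 9.14 in control at 24 h (0.62 ± 0.17, adjusted p = 0.213). Replicate 3 alone reached the 24 h level. POLR1A, the largest subunit of RNA polymerase I, read 0.36 at 48 h (adjusted p = 0.21) and -0.33 against control at 24 h. The median of the list was 0.061 without RHOXF2 replicate 3. RHOXF1 arrays of 48 h had list means of 0.131, 0.148 and 0.054, overlapping those of the RHOXF2 arrays (0.074, 0.112 and 0.401).

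Proteasome subunits had 42 of 47 higher and 9 (19.1%) above all controls of 48 h (median 0.137, and -0.142 against control at 24 h). Above all controls of 24 h lay 0 of them, and below these 11. PSMD14, the deubiquitinase of the lid, read 10.45, 10.41 and 10.50 against 10.18, 10.07 and 10.12 at 48 h and 10.50, 10.60 and 10.64 in control at 24 h. It lay above the controls of its own time with no overlap (0.33 ± 0.08, adjusted p = 0.156). The ATPase subunit PSMC6 read 0.50 and PSMD1, a scaffold of the base, 0.44. Without control replicate 1, 2 proteasome clusters were called, both higher, beside 54 higher among all 21214 clusters. That array held the highest control mean of this list (0.055), so its removal in itself widens the difference. The median was 0.101 without RHOXF2 replicate 3, and RHOXF1 arrays of 48 h, with list means of 0.113 to 0.137, lay in the range of the RHOXF2 arrays (0.082 to 0.271).

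Mitochondrial ribosomal proteins had 55 of 74 higher (median 0.094), whereas cytosolic ribosomal proteins had 66 of 95 lower (median -0.041, and 0.074 against control at 24 h). Without RHOXF2 replicate 3 these medians were 0.034 and -0.008. For mitochondrial ribosomal proteins the list means were 0.079, 0.107 and 0.06 on RHOXF1 arrays of 48 h and 0.036, 0.056 and 0.208 on RHOXF2 arrays. MRPL18 of the large mitochondrial subunit read 0.28 (adjusted p = 0.22), and RPL37A of the cytosolic large subunit -0.26 (adjusted p = 0.255). By limma 0 of the clusters of these 4 lists were called; at an unadjusted p under 0.05, 15 nucleolar, 14 proteasome and 10 mitochondrial ribosomal clusters were higher and none lower, and 1 cytosolic ribosomal cluster was higher and 6 lower.

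**Figure D3:**
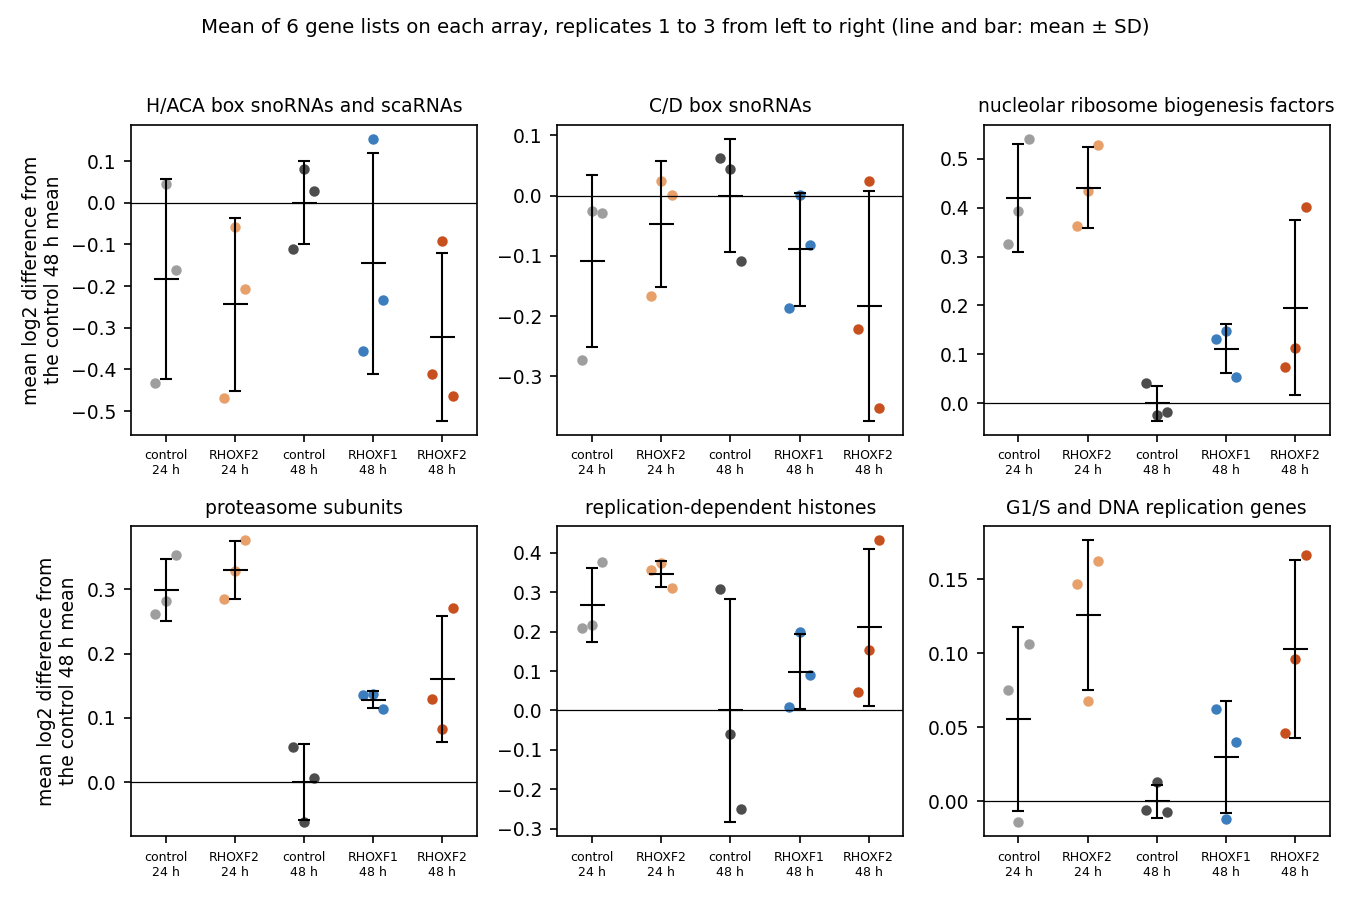
Mean log2 difference from the control mean of 48 h (vertical axis) over the clusters of 6 gene lists on each array, replicates 1 to 3 from left to right, with the mean and SD of 3 arrays as line and bar. For nucleolar factors RHOXF2 replicate 3 (0.401) sits among the arrays of 24 h, and control arrays of 48 h spread from -0.249 to 0.308 for histones.

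Replication-dependent histone clusters, a wider list here than the core genes, had 58 of 67 higher. Above all controls of 48 h lay 5 (7.46%), close to the background of 6.59%. Their median was 0.181 at 48 h and -0.022 against control at 24 h. H4C4 read 9.28, 9.30 and 9.62 against 9.09, 8.80 and 8.56 (0.58 ± 0.15, adjusted p = 0.187) and equalled control at 24 h (0.02). The list mean of control arrays at 48 h ran from -0.249 to 0.308, and the median was 0.309 without control replicate 1, 0.069 without control replicate 3 and 0.104 without RHOXF2 replicate 3. Without control replicate 1, 6 histone clusters were called, all higher, and with all arrays none. That array held the highest control mean of this list (0.308), so its removal in itself widens the difference. Among all 21214 clusters that removal gave 54 higher calls. G1/S and DNA replication genes had 27 of 35 higher and 8 (22.9%) above all controls of 48 h (median 0.11, 0.073 without RHOXF2 replicate 3). Against the controls of 24 h, 6 lay above all arrays and 6 below. E2F2, an activating E2F factor, read 0.27 at 48 h (adjusted p = 0.213) and 0.53 against control at 24 h (adjusted p = 0.00372). CLSPN, an adaptor of the replication checkpoint, read 0.49 at 48 h (adjusted p = 0.133) and -0.40 against control at 24 h (adjusted p = 0.0488), with both differences tested in the same fit. G2/M genes had 16 of 34 higher (median -0.004).

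**Figure D4:**
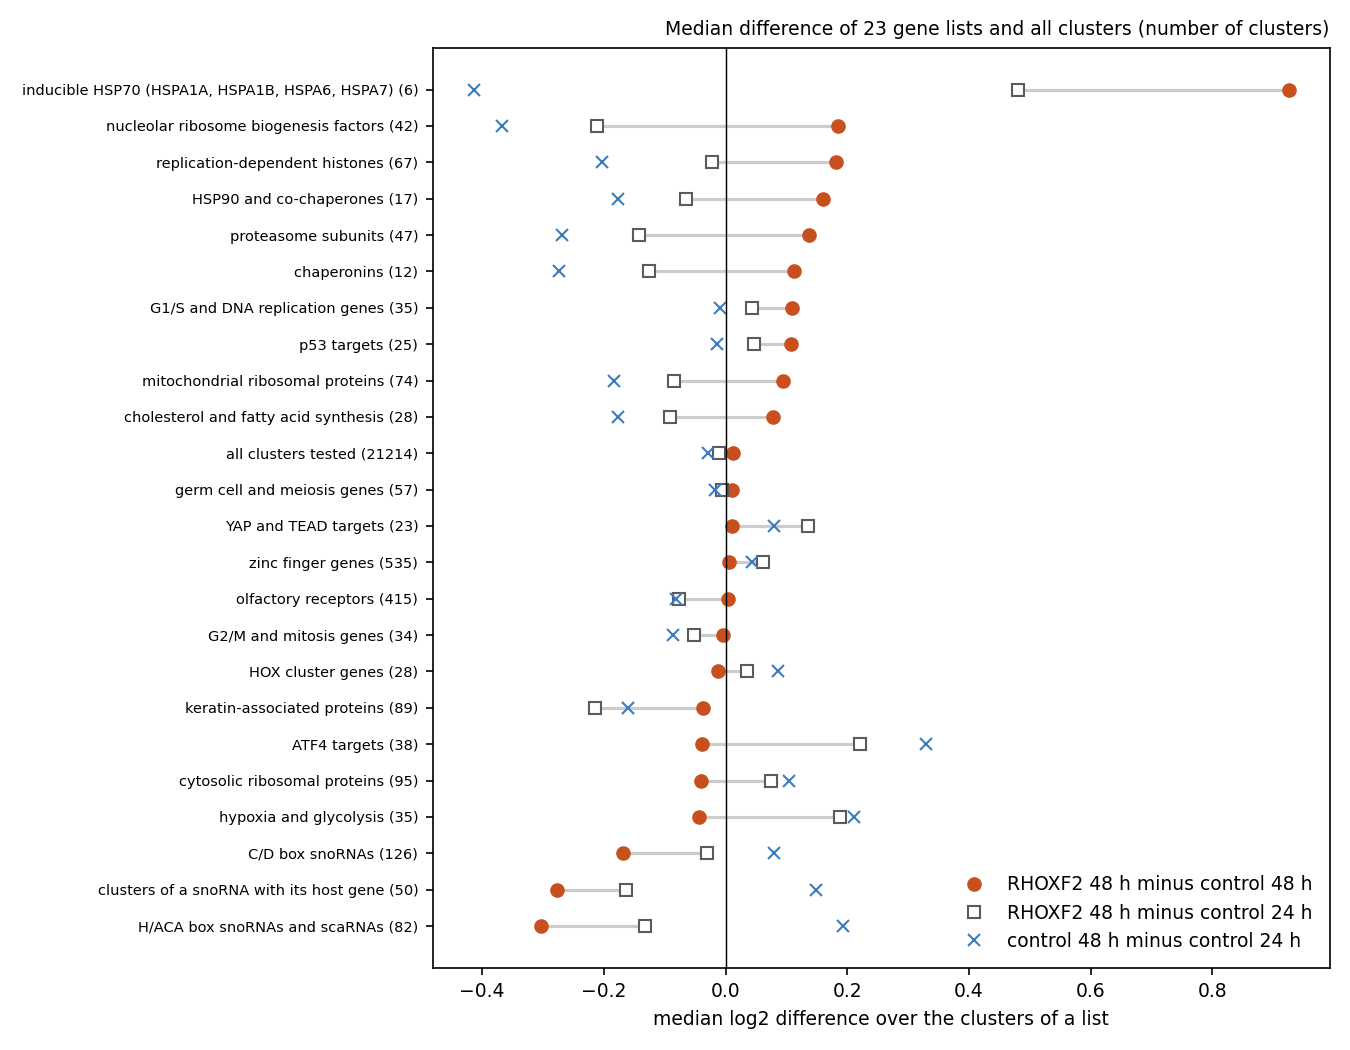
Median log2 difference (horizontal axis) over the clusters of 23 gene lists and over all clusters, for RHOXF2 at 48 h minus control at 48 h (filled circles), RHOXF2 at 48 h minus control at 24 h (open squares) and control at 48 h minus control at 24 h (crosses). Inducible HSP70 clusters stay above 0 against both controls (0.926 and 0.48), and nucleolar factors change sign between them (0.184 and -0.212).

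Metabolic and stress lists other than heat shock gave no call. Cholesterol and fatty acid synthesis had 20 of 28 higher (median 0.078, but 0.003 with 14 of 28 higher without RHOXF2 replicate 3). Targets of p53 had 20 of 25 higher (median 0.108, 0.055 without that replicate); the cell death gene BAX read 0.34 (adjusted p = 0.283) and PMAIP1 -0.45 (adjusted p = 0.271). ATF4 targets had 16 of 38 higher (median -0.038) and stood above control at 24 h (median 0.221), as did control at 48 h (0.33). Against control at 48 h the sign of this median turned with single arrays, from -0.174 without control replicate 2 to 0.058 without control replicate 3. Genes of hypoxia and glycolysis had 13 of 35 higher (median -0.043), and here the median was 0.108 without control replicate 2 and -0.21 without control replicate 3. The interferon response (19 of 30 higher, median 0.019) and ER chaperones (13 of 25, median 0.012, -0.039 without control replicate 1) were close to 0. Each of these 6 lists had 0 calls by limma, with 0 to 5 higher and 0 to 3 lower clusters at an unadjusted p under 0.05.

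Developmental and germ line families gave no call beyond the genes above. Of 28 HOX clusters 13 were higher and 15 lower, with 4 (14.3%) below all controls of 48 h, among them HOXD10 (-0.46 ± 0.11, adjusted p = 0.154). Against the controls of 24 h, 0 of the 28 lay below all arrays and 4 above. Of 58 other homeobox clusters 33 were higher and 25 lower (median 0.05), with 8 (13.8%) below all controls of 48 h and 2 above. Against the controls of 24 h, 4 lay below all arrays and 12 above. Germ cell and meiosis genes had 32 of 57 higher (median 0.011), with SYCP2 of the synaptonemal complex at -0.54 (adjusted p = 0.213). Genes of Sertoli and Leydig cells, the somatic cells of the testis, had 17 of 28 higher (median 0.051). UNC5 netrin receptors, which include known targets of mouse Rhox5, and their ligands had 6 of 12 higher (median 0.002). Among them UNC5C read -0.13 ± 0.10 (limma, adjusted p = 0.632). Zinc finger genes (275 of 535 higher, median 0.005) and olfactory receptors (218 of 415 higher, median 0.004) had medians close to that of all clusters.

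Neuronal genes expressed by HEK293 split. INA, an intermediate filament of neurons, read 8.09, 8.79 and 8.63 with RHOXF2 against 7.87, 7.48 and 7.80 in control at 48 h (0.79 ± 0.19, adjusted p = 0.148), and 7.94, 8.07 and 8.37 in control at 24 h. RHOXF2 arrays were above the 48 h controls and overlapped those of 24 h. Of 55 neurofilament and synaptic clusters 26 were higher and 29 lower, with PRRT2 the one called. Above all controls of 48 h lay 8 (14.5%), and below them 7 (12.7%).

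Against RHOXF1 at 48 h, limma called 11 clusters (0.0519%), 10 of them higher with RHOXF2 (0.0471%) and 1 lower (0.00471%). Those higher were RHOXF2 in its pair of clusters, ANKRD1, 5 clusters of HSPA1A and HSPA1B, KRTAP19-5 and GCM1, and RHOXF1 was lower. Without RHOXF2 replicate 2 the calls numbered 4. HSPA6 (1.55, adjusted p = 0.0937), HSPH1 (0.77, adjusted p = 0.135) and DNAJB1 (0.46, adjusted p = 0.998) did not pass. DNAJB1 read 10.34, 10.75 and 10.06 with RHOXF2 and 9.87, 10.20 and 9.71 with RHOXF1, overlapping ranges. The interaction of vector and time called 3 clusters (0.0141%), ANKRD1 and both of RFPL4A, but 0 after quantile normalization was repeated or cyclic loess was applied.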

How the data were processed

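Total RNA was measured on 18 Affymetrix arrays, 6 groups of 3. The authors deposited log2 values summarised by RMA; per the labels they come from Affymetrix Expression Console 3.1. RMA as a method corrects background, normalizes by quantiles and summarises the probes of a cluster. The array descriptions name a Human Gene 1.0 ST array and the series text an exon array. The genome build of the annotation is not given in the sources used here. RNA had an integrity number above 7, per the labels. Of 33297 clusters, 21214 carried a symbol in the supplied probe table (19460 exactly 1, 1754 several), and 703 were identical to another on every array. The remaining 12083 have no symbol and were fitted apart: 0 were called by limma and 1314 had an unadjusted p under 0.05. No filter on dim clusters was used.

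Each cluster was fitted in limma 3.58.1 (R 4.3.3; lmFit, eBayes) with 1 mean per group over all 18 arrays (12 residual degrees of freedom). Tests were two-sided and Benjamini-Hochberg adjusted over the 21214 clusters of each comparison at 0.05. A list counts clusters whose symbols all belong to it, identical ones once; no list was tested as a set. The number of arrays limits the precision. Named genes were RHOXF1 and RHOXF2; 12 single-symbol clusters per direction outside chaperones with the smallest p and all 3 RHOXF2 arrays outside the 48 h control range; 3 per list and those called; called clusters of several symbols; and 5 per direction from other comparisons, each gene by its brightest cluster. CCN1, CCN2, AMOTL2, YAP1, TEAD1, UNC5C and the other members of small families were added to complete their families. Members, lists and rules were chosen with earlier results of these data known. The classes of chaperones and the snoRNA host clusters were formed after values were seen. On simulated data the fit called 33 of 50 clusters changed by 0.5 log2 units in this comparison, 50 of 50 changed by 1, 49 of 50 changed by 2 and 50 of 50 changed by -1. The simulated noise was normal and independent between arrays and clusters, with the spread of each cluster. It held no change with time and no deviating array, so these rates need not hold for the real arrays. Replicate numbers did not pair the RHOXF2 and control arrays of 48 h (residual correlations -0.346, 0.0345 and -0.267), so no block was used in the main comparison; those of 24 h correlated at 0.504, 0.134 and 0.157. Alternatives were other arrays in the fit, eBayes trend and robust, repeated quantile normalization, cyclic loess, bright or single-symbol clusters, array weights, a replicate block and leaving out each array. Promoter and microRNA sequences are from RefSeq, GRCh38.p14.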

Additional observations from a re-analysis of the deposited data

Results flagged for a closer look

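3 clusters showed a RHOXF2 effect at 48 h that differed from the effect at 24 h, by the interaction of vector and time (limma, adjusted over all clusters). For ANKRD1 the difference of effects was 1.89 ± 0.28 (adjusted p = 0.0168). The clusters of RFPL4A gave 1.09 ± 0.16 (adjusted p = 0.0168) and 1.28 ± 0.17 (adjusted p = 0.00914). All 3 RHOXF2 arrays of 48 h were above all control arrays of 48 h for each. The effects kept their sign under every alternative run, from 1.62 to 2.16 for ANKRD1, but after repeated quantile normalization (adjusted p = 0.125 for ANKRD1, 0.176 and 0.0723 for RFPL4A) and cyclic loess (0.0963, 0.168 and 0.0758) none passed. ANKRD1 and the brighter RFPL4A cluster were also not called without RHOXF2 replicate 1, control replicate 1 or control replicate 2, and the latter also not without RHOXF2 replicate 2 (adjusted p = 0.06) or with a replicate block (adjusted p = 0.0622). At 24 h, RHOXF2 and control arrays of the same number had residual correlations of 0.504, 0.134 and 0.157.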

How the results depend on the processing

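The 20 calls against control at 48 h became 4 with only the 6 arrays compared in the fit, 13 with the 9 arrays of 48 h and 10 with single-symbol clusters, and ran from 15 to 125 when 1 array was left out. With the 6 or the 9 arrays all calls were higher, so ADAM20P1 and PRRT2 lost theirs. The interaction gave 3 calls, but 0 after repeated quantile normalization, after cyclic loess and among clusters above the median level, and 1 to 3 with 1 array left out. Against control at 24 h the 1036 calls became 1964 with array weights and 1653 with a replicate block, and ran from 52 (without RHOXF2 replicate 2) to 1202 with 1 array left out. RHOXF2 against RHOXF1 at 48 h gave 11 calls, 5 with the 9 arrays of 48 h, 4 with single-symbol clusters, and 4 to 12 with 1 array left out. Control at 48 h against 24 h gave 3772, and 2073 to 4077 with 1 array left out. RHOXF2 against control at 24 h gave 2, and 0 with single-symbol clusters, which leave out the RHOXF2 pair. The replicate block gave 26 calls against control at 48 h (18 higher, 8 lower) and 12 against RHOXF1; of 9 same-number pairs at 48 h, 2 correlated above 0.1 (RHOXF2 with RHOXF1, 0.238 and 0.244), and of 9 at 24 h, 8 did. ANKRD1, DNAJB1 and RHOXF2 were called under every alternative they entered; BAG3 was called under 6 of 15 and RHOXF1 under 5 of 15. Signs turned only for values near 0: with 1 array left out, RFPL2 ran from -0.17 to 0.06 (without control replicate 1), RFPL1 from -0.02 (without RHOXF2 replicate 1) to 0.11, SGK1 from -0.04 (without control replicate 3) to 0.08, and CFAP44 from -0.1 to 0.05 (without RHOXF2 replicate 2 or control replicate 3). Another normalization moved the median of all clusters from 0.0128 to 0.00479 (repeated quantile) and -3.92e-05 (cyclic loess). The causes were not tested.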
